A study of Mus musculus with 30 samples.

Results

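Klrd1, the mouse gene of the lymphocyte surface receptor chain CD94, is 1 of 374 genes that could be named on a custom Affymetrix array of glycan-related and immune genes, and 1 of the 746 probe sets tested measured it. The probe set was found through its RefSeq accession, and its suffix marks probes that can be shared between transcripts. Klrd1 was chosen by its level on fresh cells, where CD8 T cells exceeded CD4 T cells. For that reason each Klrd1 difference that uses a fresh T-cell array is given below as a description, with no test.

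The cells were spleen lymphocytes of male C57Bl/6 mice aged 6 to 10 weeks, in 10 groups of 3 arrays. CD8 T cells and CD4 T cells each came from 3 cultures and from fresh spleen. The cultures held 4 ng/ml IL-2 together with 5 ng/ml IL-12, 4 ng/ml IL-2 together with 10 ng/ml IL-4, or 4 ng/ml IL-2 alone. B cells came from a culture that held 10 ug/ml anti-IgM plus 10 ng/ml IL-4 and from fresh spleen. Groups were taken from the array titles, which also carry a letter of unstated meaning. The longer text of each T-cell array mentions purified B cells as well as its T-cell subset. No T-cell stimulus beyond the cytokines is named in the labels, and 72 hours of culture are written for 4 arrays. Every culture held a cytokine, so effects of activation and of being cultured cannot be told apart. The labels do not say whether a group's arrays stem from different mice. The p-values therefore cover an array-to-array spread that may be technical only.

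CD94 is a C-type lectin-like protein that sits on the cell surface paired with a chain of the NKG2 family. With NKG2A (Klrc1) the pair inhibits the cell, and with NKG2C (Klrc2) it activates it through an adaptor protein; both recognise Qa-1 (H2-T23), a class I-like molecule that presents leader peptides of other class I proteins. CD94 has a short tail without a signalling motif of its own, so its effect depends on the partner chain. The receptor is best known from natural killer cells, and it also appears on CD8 T cells, mainly activated or memory ones. The gene lies in the natural killer gene complex, a cluster of genes for related receptors.

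None of the 12 listed partner, adaptor and ligand genes of CD94 was measured under its own name, nor were Cd4, Cd8a and Cd8b1. Of 50 receptors listed for the natural killer gene complex, Klrd1 was the 1 measured, and of its 10 nearest neighbours in RefSeq gene order (Klre1 on one side and Klrk1, Klrc3, Klrc2, Klrc1 and Klri1 on the other among them) none was named on it. Of 7 listed T-cell markers the array names 1, Cd2, the gene of an adhesion receptor. Cd2 signals lay between 3579 and 5304 on cultured CD8 arrays, 6725 and 12720 on cultured CD4 arrays, and 719 and 904 on activated B-cell arrays. On fresh arrays they lay between 4033 and 6192 in CD8, 1939.5 and 7011 in CD4, and 1553 and 3003 in B cells. The fresh CD4 array of letter C (1939.5) thus lay inside the fresh B-cell range, and Cd2 did not set it apart from B cells. Il7r, the gene of an IL-7 receptor chain and not a listed marker, did set the fresh CD4 arrays apart. Its signals ran from 5290 to 7728 on fresh CD4 arrays and from 116 to 333 on fresh B-cell arrays. The summed signal of 4 of 9 listed B-cell markers ran from 364 to 677 on cultured CD8 arrays, from 555 to 1075 on cultured CD4 arrays and from 8703 to 14946 on activated B-cell arrays. On fresh arrays this sum was higher, from 1237 to 3191 in CD8, 2013 to 2786 in CD4 and 20353 to 25171 in B cells. Among 12 listed natural killer cell markers the array names Itga2 alone, with signals of 9.3 to 30.9 on cultured CD8 arrays and 7.9 to 47.5 on cultured CD4 arrays. These signals lay below every array median and may not lie above background, so Itga2 cannot show whether natural killer cells were present. In RNA of a whole population, fewer cells that express a gene and less RNA per cell cannot be told apart. Array medians over all probe sets ran from 115 to 204. A fresh CD4 array, of letter C, stood apart in the ratio of 3' to 5' control signals, with 7.62 for Actb and 4.97 for Gapdh, against 1.03 to 1.62 and 1.04 to 1.62 on the other 8 fresh arrays.

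All 12 CD8 arrays had a higher Klrd1 signal than all 12 CD4 arrays and all 6 B-cell arrays. The CD8 arrays ran from 3735 to 9522 with a median of 5477, the CD4 arrays from 287 to 1806 with a median of 811, and the B-cell arrays from 121 to 1054 with a median of 309. Signals are deposited intensities on a linear scale with no detection call, so a low signal is not shown to lie above background. The lowest B-cell value lay within the range of the array medians. Of all probe sets 0.268% had no overlap between the 12 CD8 and the 12 CD4 arrays, and 5.36% none between the 12 CD8 and the 6 B-cell arrays. The fresh arrays that chose the gene are part of both counts.

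**Figure D1:**
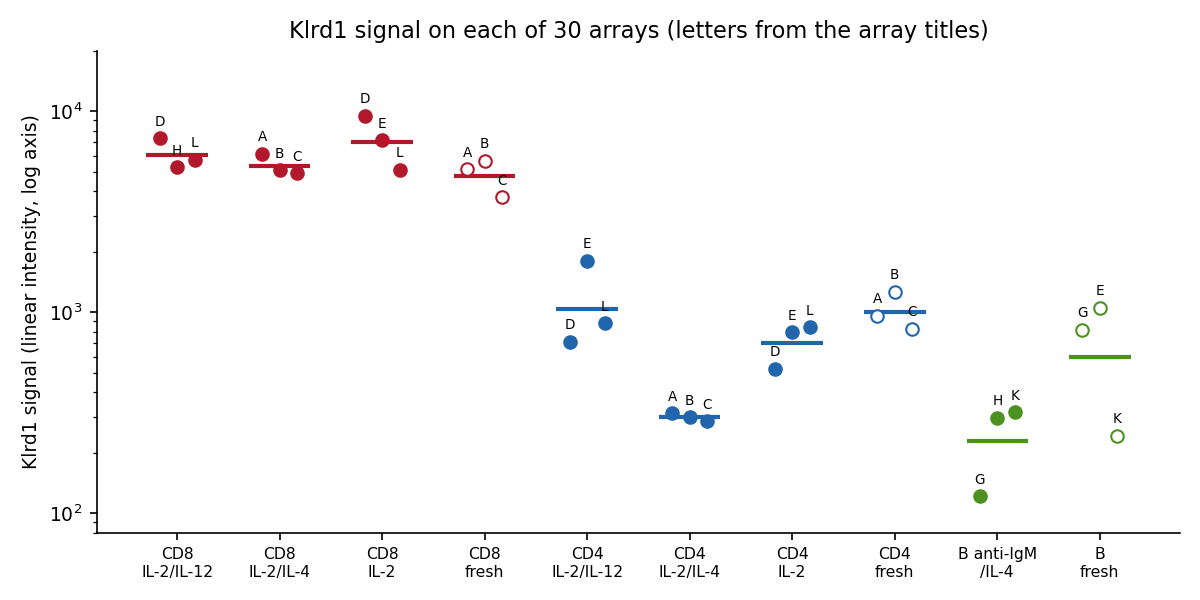
Klrd1 signal (linear intensity, log axis) on each of the 30 arrays, by group, with filled points for cultured and open points for fresh cells, letters from the array titles, and a bar at the mean of log2(signal + 16). The 12 CD8 arrays lie between 3735 and 9522, above the 12 CD4 arrays, which lie between 287 and 1806.

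CD8 cells cultured with IL-2 and IL-12 had Klrd1 signals of 7333, 5281 and 5745 on the arrays of letters D, H and L. With IL-2 and IL-4 the signals were 6158.5, 5078 and 4908 on the arrays A, B and C. With IL-2 alone they were 9522, 7188 and 5108 on the arrays D, E and L, the widest range among the CD8 groups. Fresh CD8 cells had 5149, 5672 and 3735 on the arrays A, B and C, so the 4 CD8 groups overlapped.

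CD4 cells cultured with IL-2 and IL-12 had signals of 712, 1806 and 883 on the arrays D, E and L, and the array of letter E was the highest of all CD4 arrays. With IL-2 and IL-4 the signals were 314, 300.1 and 287 on the arrays A, B and C, the lowest of the CD4 groups. These 3 arrays differed by a factor of 1.09 between highest and lowest, with a coefficient of variation of 4.49%. With IL-2 alone the signals were 525, 795 and 842 on the arrays D, E and L. Fresh CD4 cells had 963, 1267 and 827 on the arrays A, B and C.

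B cells activated with anti-IgM plus IL-4 had Klrd1 signals of 121, 299 and 319 on the arrays G, H and K. Fresh B cells had 821, 1054 and 243 on the arrays G, E and K. The fresh array of letter K lay inside the range of the activated ones, and the fresh B cells had the largest SD of all groups on the log2 scale, 1.09.

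Ordered by mean log2(signal + 16), CD8 cells with IL-2 came first (7273 ± 2208, SD, n = 3). They were followed by CD8 cells with IL-2 and IL-12 (6119.6 ± 1076), CD8 cells with IL-2 and IL-4 (5382 ± 678) and fresh CD8 cells (4852 ± 1002). Next came CD4 cells with IL-2 and IL-12 (1133 ± 588), fresh CD4 cells (1019 ± 225), CD4 cells with IL-2 (721 ± 171) and fresh B cells (706 ± 417). CD4 cells with IL-2 and IL-4 (301 ± 13.5) and activated B cells (247 ± 109) stood at the end. Each group overlapped its neighbour in this order in at least 1 array, with a single exception. Between fresh CD8 cells and CD4 cells with IL-2 and IL-12 no arrays overlapped, and the step was 2.18 on the log2 scale, where 28.7% of all probe sets did not overlap. This step uses fresh arrays and is a description.

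The cultured arrays, which the choice of Klrd1 did not use, showed whether the CD8 and CD4 subsets differed in culture as well. Klrd1 was higher in cultured CD8 than in cultured CD4 cells in each of the 3 cytokine conditions. The 9 cultured CD8 arrays averaged 6258 ± 1518 (SD) and the 9 cultured CD4 arrays 718 ± 473. Averaged over the 3 cultures, the difference was 3.30 ± 0.25 on the log2(signal + 16) scale (SE; 95% interval 2.79 to 3.81), which is 9.83-fold, with a limma adjusted p of 7.77e-10 over all 746 probe sets. In this comparison 9.65% of the probe sets passed an adjusted p under 0.05 in either direction, and in 3.75% the 9 arrays of one subset did not overlap the 9 of the other, as was the case for Klrd1. Only the 2 probe sets of Xcl1 had a higher CD8 minus CD4 value, so that Klrd1 ranked 3 of 746.

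By condition, the CD8 minus CD4 difference was 2.52 ± 0.43 with IL-2 and IL-12 (SE; interval 1.64 to 3.40; limma adjusted p = 0.00136). With IL-2 and IL-4 it was 4.09 ± 0.43 (interval 3.20 to 4.97; limma adjusted p = 2.63e-07). With IL-2 alone it was 3.29 ± 0.43 (interval 2.41 to 4.17; limma adjusted p = 4.27e-05). These are folds of 5.73, 16.97 and 9.78, and in each condition no CD8 array overlapped a CD4 array. Of all probe sets 2.82% passed with IL-2 and IL-12, 3.89% with IL-2 and IL-4 and 3.22% with IL-2, while 21.8%, 22.3% and 23.6% did not overlap. Within single scan periods, which are runs of array scans more than 40 days apart, the difference was 2.67 with IL-2 and IL-12 (1 CD8 array against 2 CD4 arrays). It was 4.26 and 4.05 in 2 periods with IL-2 and IL-4, and 3.65 with IL-2 alone. All 4 calls held under every alternative run, with mean differences over the cultures of 3.19 to 3.46.

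Whether IL-4 or IL-12 added to IL-2 went with another Klrd1 level was asked in each subset. In CD8 cells no cytokine comparison passed. The difference was -0.22 with IL-12 added (95% interval -1.10 to 0.66; limma adjusted p = 0.981) and -0.39 with IL-4 added (interval -1.28 to 0.49; limma adjusted p = 0.995). Between the IL-12 and the IL-4 condition it was 0.18 (interval -0.70 to 1.06; limma adjusted p = 0.990). Together these intervals allow differences between -1.28 and 1.06. Of all probe sets 0.268% passed with IL-12 added, 0% with IL-4 added (limma; 28 at an unadjusted p under 0.05) and 0.536% between the IL-12 and the IL-4 condition.

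In CD4 cells Klrd1 was higher with IL-2 and IL-12 than with IL-2 and IL-4. The 3 arrays with IL-12 (712 to 1806) lay above the 3 with IL-4 (287 to 314), a difference of 1.74 ± 0.43 on the log2 scale or 3.35-fold (SE; interval 0.86 to 2.62; limma adjusted p = 0.0391). Of all probe sets 1.34% passed in this comparison and 21.8% did not overlap. The call rests on few arrays: without the IL-12 array of letter E the difference was 1.35 (limma adjusted p = 0.320), and of the 6 arrays only leaving out the IL-12 array of letter D kept it. It was also lost with scan period as a block (1.71; limma adjusted p = 0.222), while within the 1 period that holds both conditions the difference was 1.92 (2 arrays against 1).

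Against IL-2 alone, the CD4 arrays with IL-4 lay lower without overlap (287 to 314 against 525 to 842). The difference was -1.19 ± 0.43 (interval -2.07 to -0.31) and did not pass over all probe sets (limma adjusted p = 0.339, unadjusted p = 0.0102). In this comparison 0.804% of the probe sets passed and 17.8% did not overlap. The CD4 arrays with IL-12 overlapped those with IL-2 alone, with a difference of 0.55 (interval -0.33 to 1.43; limma adjusted p = 0.9996), where 0.134% of the probe sets passed. The CD4 groups with IL-4 and with fresh cells carry the title letters A to C, and those with IL-2 alone or IL-12 the letters D, E and L, so condition and letter cannot be told apart here.

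The dependence of the CD8 minus CD4 difference on the cytokine was tested as an interaction and did not pass. The difference with IL-2 and IL-12 minus that with IL-2 was -0.77 ± 0.60 (SE; interval -2.02 to 0.47; limma adjusted p = 0.992), where 0% of the probe sets passed (30 at an unadjusted p under 0.05). With IL-2 and IL-4 minus IL-2 it was 0.80 ± 0.60 (interval -0.45 to 2.04; limma adjusted p = 0.988; 0.402% of the probe sets passed). With IL-2 and IL-12 minus IL-2 and IL-4 it was -1.57 ± 0.60 (interval -2.81 to -0.32; limma adjusted p = 0.740; 0.268% passed), a comparison added after the CD4 result was seen. The higher level with IL-12 than with IL-4 in CD4 cells is thus not shown to differ from that in CD8 cells.

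**Figure D2:**
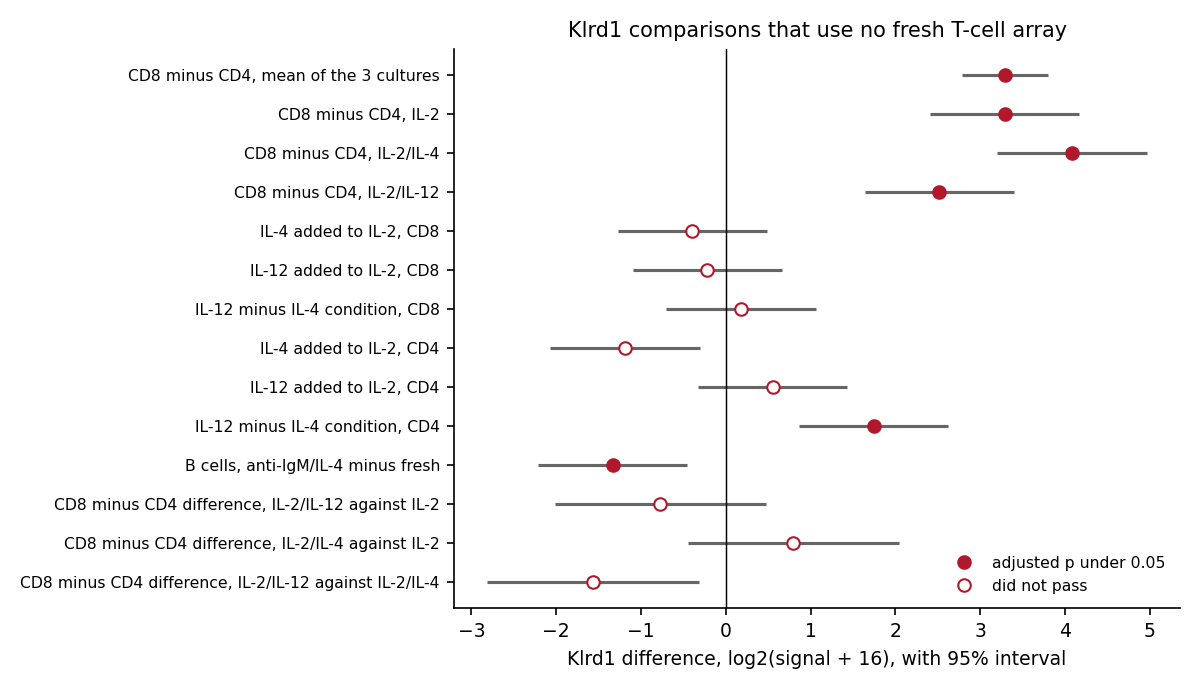
Klrd1 differences on the log2(signal + 16) scale (points) with 95% intervals (lines) from limma, for the 14 comparisons that use no fresh T-cell array; filled points have an adjusted p under 0.05. The 4 CD8 minus CD4 differences lie between 2.52 and 4.09, and the intervals of the 3 cytokine comparisons in CD8 cells include 0.

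The fresh T-cell arrays chose the gene and are described without a test. The fresh CD8 arrays (3735 to 5672) lay above the fresh CD4 arrays (827 to 1267), by 2.23 on the log2 scale or 4.70-fold. Without the fresh CD4 array of letter C the difference was 2.10. In this comparison 1.61% of all probe sets passed and 13.3% did not overlap, and 2 probe sets stood above Klrd1, that of the integrin gene Itgae (2.55) and an unnamed one (2.28). The other Klrd1 differences that share these arrays follow from the same values. Cultured minus fresh CD8 cells gave 0.34 with IL-2 and IL-12, 0.16 with IL-2 and IL-4 and 0.56 with IL-2, each with overlapping arrays. Cultured minus fresh CD4 cells gave 0.06 with IL-2 and IL-12 and -0.50 with IL-2, with overlap, and -1.69 with IL-2 and IL-4, where neither Klrd1 nor 34.5% of all probe sets had overlapping arrays. Fresh B cells differed by -2.96 from fresh CD8 cells, without overlap, as was so for 19.8% of all probe sets. They differed by -0.73 from fresh CD4 cells, with overlap. The sums of myeloid and dendritic and of platelet and endothelial markers overlapped between cultured CD8 and cultured CD4 arrays. Between fresh CD8 and fresh CD4 arrays these sums did not overlap, while Itga2 did. On cultured arrays the summed myeloid and dendritic markers, 4 of 8 listed, were 170 to 357 in CD8 and 148 to 630.4 in CD4 cells. The sum of platelet and endothelial markers, 4 of 7 listed, was 153 to 560.3 on cultured CD8 and 178 to 454 on cultured CD4 arrays. The myeloid and dendritic sum ran from 771 to 1293 on fresh CD8 arrays and from 1823 to 2777 on fresh CD4 arrays. The platelet and endothelial sum ran from 1805 to 2178 on fresh CD8 and from 2551 to 5362 on fresh CD4 arrays, and Itga2 from 13 to 32.3 and from 13.8 to 174 on the same arrays. The part of these markers in the Klrd1 values was not tested.

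**Figure D3:**
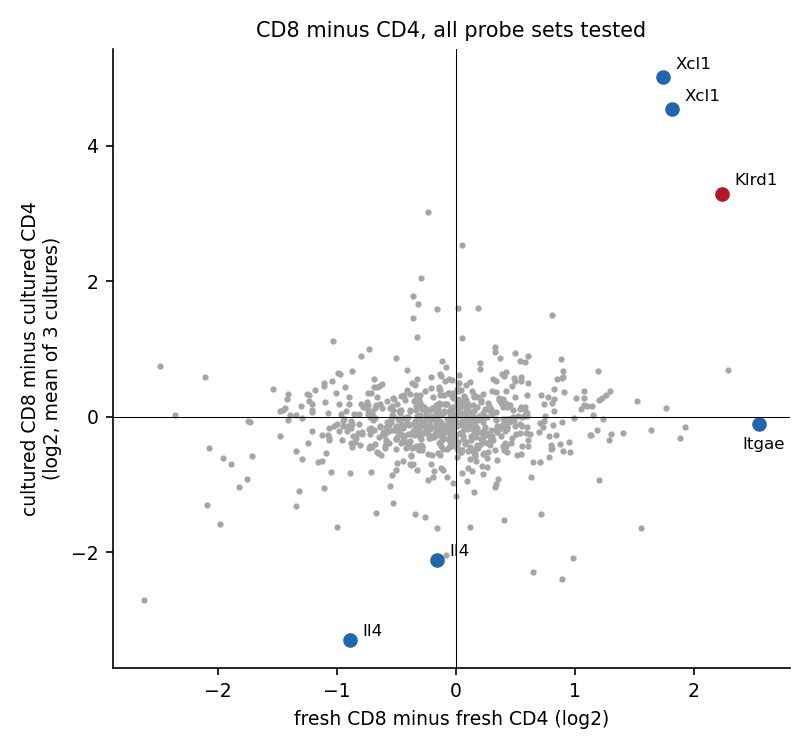
CD8 minus CD4 difference of each of the 746 probe sets on the log2(signal + 16) scale, in fresh cells (x axis) and as the mean of the 3 cultures (y axis); both axes use separate arrays, and the x axis chose Klrd1. Klrd1 lies at 2.23 and 3.30, below the 2 Xcl1 probe sets on the y axis, and Itgae lies at 2.55 in fresh and -0.10 in cultured cells.

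In B cells Klrd1 was lower after activation with anti-IgM plus IL-4 than on fresh arrays, with a log2 difference of -1.33 ± 0.43 (SE; interval -2.21 to -0.45; limma adjusted p = 0.0473), a 2.52-fold decrease. The arrays of the groups overlapped, and 9.79% of all probe sets passed in this comparison. Within the 3 scan periods that hold 1 array of each group the difference was -2.61, -1.76 and 0.37, the last being the arrays of letter K. The call was lost in 12 of 19 alternatives, among them leaving out the fresh array of letter G (-1.11; limma adjusted p = 0.184) or E (-0.93; limma adjusted p = 0.263), or the activated array of letter G (-0.92; limma adjusted p = 0.253) or H (-1.52; limma adjusted p = 0.0623).

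Several marker sums, that of the B-cell markers among them, were lower on the activated B-cell arrays, while some single markers were not. Cd2 had 723, 719 and 904 on the activated arrays G, H and K, and 3003, 2429 and 1553 on the fresh arrays G, E and K. Which cells gave the Cd2 signal on the B-cell arrays, the B cells themselves or others, was not tested. Array K was the lowest fresh and the highest activated array for both Cd2 and Klrd1. The highest fresh array was E for Klrd1 and G for Cd2, and the lowest activated array was G for Klrd1 and H for Cd2. Summed myeloid and dendritic markers ran from 306 to 501 on activated and from 825 to 1823 on fresh arrays. Platelet and endothelial markers ran from 460 to 745 on activated and from 2858 to 4436 on fresh arrays, and B-cell markers from 8703 to 14946 on activated and from 20353 to 25171 on fresh arrays. Within these sums Siglec1 averaged 152 ± 51.5 on activated and 92.8 ± 63.2 on fresh arrays, and Sele 145 ± 39.2 and 116 ± 14.6 on the same arrays (SD, n = 3 each). Itga2, the measured natural killer cell marker, had 20.8 to 30.1 on activated and 15.2 to 26.3 on fresh arrays. The part of these in the Klrd1 decrease was not tested.

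Among 276 other named genes with at least 1 group mean above 7.09 on the log2 scale, the pattern most like that of Klrd1 over the 10 group means was that of Xcl1, the gene of the chemokine lymphotactin, which attracts XCR1-bearing dendritic cells. Its Pearson r was 0.946 over the group means, and over the 30 arrays r was 0.919 with a Spearman rho of 0.919. All correlations here are descriptions over arrays that share a scaling and group structure, and the fresh arrays enter them. Xcl1 averaged 4665 ± 2710 in CD8 cells with IL-2 and IL-12 against 471 ± 548 in CD4 cells with the same (SD, n = 3 each). With IL-2 and IL-4 it averaged 6601 ± 2946 in CD8 cells against 145 ± 45.3 in CD4 cells. In fresh CD8 cells its signal was 1146 ± 497 and in fresh CD4 cells 300.4 ± 99.3. Unlike Klrd1, whose 4 CD8 groups overlapped, Xcl1 was lower on each fresh CD8 array (572 to 1443) than on any cultured CD8 array (1480 to 9262), a comparison in which 18.8% of all probe sets did not overlap.

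Within groups Xcl1 and Klrd1 varied together in part. The CD4 array of letter E with IL-12, the highest CD4 array for Klrd1, had an Xcl1 signal of 1103, against 146 and 163 on the others of its group. The CD8 arrays of letter L with IL-2, and of letter C among fresh cells, were the lowest of their groups for both genes. In all, the same array was the lowest for both genes in 7 of 10 groups, and the highest in 7 of 10. Among those that differed, the CD8 array of letter H with IL-12 was the lowest of its group for Klrd1 (5281) and the highest for Xcl1 (6735). Over the 30 deviations from group means r was 0.77 for Xcl1 and between -0.47 (Il2) and 0.37 (Il7r) for the other genes named below for their likeness or unlikeness. This comparison of deviations was added after the values were seen. Neither the counts of shared arrays nor r of deviations were taken over all probe sets. Whether the shared variation is particular to Xcl1 was thus not tested.

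The next most alike were Ifngr1 (r = 0.839 over group means), the ligand-binding chain of the interferon-gamma receptor, and Tnfsf10 (0.820), the gene of the death ligand TRAIL. Ccl9 (0.734), a chemokine gene, and Il7r (0.715), a chain of the IL-7 receptor, followed. For Ccl9 the likeness was a matter of group means, since r over the 30 arrays was 0.254. The least alike were Ifngr2 (-0.898), the other chain of the interferon-gamma receptor, Chst3 (-0.799), a chondroitin sulfotransferase, and Il2 (-0.785). Il2 was above the signal limit of 7.09 in CD4 cells with IL-2 and IL-4 alone, and Chst3 in the 2 B-cell groups alone. These are groups of low Klrd1 level, so the limit favoured a negative r, and in the other groups both genes had mean signals of 23.2 to 120, which may not lie above background. Tnfsf10 was above the limit in 2 CD8 groups, with IL-2 and with IL-2 and IL-12, where Klrd1 is high. Ccl9 was above it in all CD8 groups and in CD4 cells with IL-2 and IL-12, the 5 groups of highest Klrd1 level. For these genes the limit thus favoured a positive r. Their group means, 41.3 to 184 for Tnfsf10 and 89.1 to 169 for Ccl9, may not lie above background. Ifngr2, Ifngr1 and Il7r were above the limit in all 10 groups. All genes named here for likeness or unlikeness were chosen by r over group means that include the cultured CD8 and CD4 groups. The choice thus favoured a CD8 minus CD4 difference of the same sign as r, and the calls that follow are no separate support. In cultured CD8 minus cultured CD4 cells Xcl1 (4.54 ± 0.47; limma adjusted p = 8.13e-08), Ifngr1 (0.64 ± 0.15; 0.00614) and Il7r (0.96 ± 0.21; 0.00240) passed on the higher side. Ifngr2 (-0.88 ± 0.17; limma adjusted p = 0.000602) and Il2 (-1.05 ± 0.33; 0.0452) passed on the lower side. Tnfsf10 (0.63), Ccl9 (0.58) and Chst3 (-0.74) did not pass, with limma adjusted p from 0.119 to 0.540. The other, dimmer probe sets of Xcl1, Ifngr1 and Il2 stood at 5.01, 0.81 and -0.27.

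**Figure D4:**
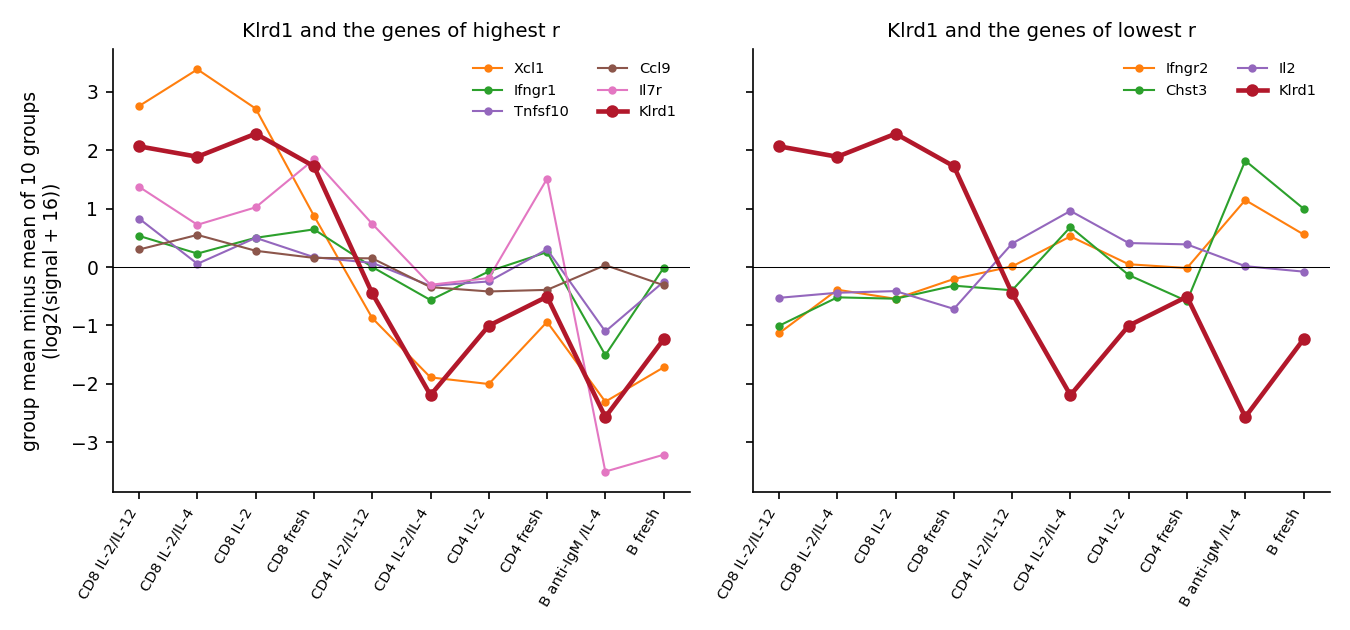
Group means of log2(signal + 16) minus the mean over the 10 groups, for Klrd1 with the 5 named genes of highest r (left) and the 3 of lowest r (right); lines join groups for reading only. Xcl1 follows Klrd1 with r = 0.946, and Ifngr2 has r = -0.898.

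Lists of genes around the biology of CD94 were counted in cultured CD8 minus cultured CD4 cells, where 9.65% of all probe sets passed and their median was -0.07. The lists were chosen with earlier results of these data known. Of 13 measured of 22 listed cytotoxic and effector genes 3 were higher in CD8 cells, Xcl1 and the inflammatory chemokine genes Ccl3 (1.61 ± 0.31) and Ccl4 (0.90 ± 0.23). In the same list 5 were lower in CD8 cells. They were the cytokine genes Il4 (-3.29 ± 0.25), Il13 (-1.65 ± 0.46) and Il2, the chemokine gene Ccl5 (-1.64 ± 0.30), and the lymphotoxin beta gene Ltb (-0.95 ± 0.15). These values are of the brightest probe set of each gene. The other probe sets of Il4, Il2 and Ccl5 stood at -2.12, -0.27 and -0.19, so for Il2 and Ccl5 they showed little difference. The list's median was 0.27. Granzyme and perforin genes, the core of the killing machinery, were not among the measured members.

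Of 9 measured of 17 listed memory CD8 T-cell surface genes 2 were higher in cultured CD8 cells, Il7r and Il2rb (1.03 ± 0.29), a receptor chain shared by IL-2 and IL-15. The chemokine receptor genes Cxcr3 (-1.43 ± 0.36), Ccr2 (-1.31 ± 0.34) and Ccr7 (-0.91 ± 0.23) were lower, and the list's median was -0.01. The other, dimmer Ccr2 probe set stood at -0.40. Of 7 measured of 14 genes for cytokines and cytokine receptors tied to natural killer cells or CD94, Il2rb and the IL-12 receptor chain gene Il12rb2 (1.18 ± 0.21) were higher, none was lower, and the median was 0.10. Of 6 measured of 40 other C-type lectin receptors none passed, with a median of -0.04, and the B-cell gene Cd72 stood at -0.49.

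In CD4 cells with IL-12 against IL-4, where Klrd1 was higher, 1 of the 13 effector genes passed, Il4, which was lower (-3.69 ± 0.44; limma adjusted p = 3.04e-06), where 1.34% of all probe sets passed. No measured member of the memory, cytokine receptor or other lectin lists passed there. Their medians were 0.72, 0.25 and 0.47, against 0.04 for all probe sets, and Il7r differed by 1.04 ± 0.36 (limma adjusted p = 0.273). In activated against fresh B cells, where 9.79% of all probe sets passed, the effector genes Ltb (-3.46 ± 0.25), Lta (-2.22 ± 0.42) and Ccl5 (-1.82 ± 0.52) were lower and Ccl4 (2.07 ± 0.40) was higher. Also there, Ccr2 (-3.07 ± 0.58) was lower and Il12rb1 (1.82 ± 0.51) was higher.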

How the data were processed

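The authors deposited 1 linear intensity per probe set and array, with 1 decimal, for 752 probe sets on 30 arrays, from 1 to 69827.5. The text of each array's experiment file, deposited with it, gave scan days (type other, not an expression value). Neither the summarising program nor any scaling across arrays is named there. Control probe sets for Actb and Gapdh (6) were left out. Names came from RefSeq accessions (GRCm38.p6 gene table), which named 449 of 462 probe sets, for 374 genes, and 297 of the tested probe sets stayed unnamed.

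Values were taken as log2(signal + 16), which understates changes of dim genes. One model of 10 group means over 30 arrays (20 residual degrees of freedom) was fitted with limma 3.58.1 (lmFit, eBayes) in R 4.3.3, two-sided, with Benjamini-Hochberg adjustment over 746 probe sets and a threshold of 0.05. Folds and intervals are on this scale. Precision is limited by 3 arrays a group. The fit was tested on simulated data. Summaries used pandas 2.3.3 and numpy 2.4.6 under Python 3.11.15, and figures matplotlib 3.10.9.

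Klrd1 and the gene lists were chosen with earlier results of these data known. Beside Klrd1, the named genes are the 6 highest and 3 lowest by Pearson r of group means, among genes whose highest group mean exceeds the median of all probe sets, and list members, up to 4 a list by absolute difference or those that passed; the further ones were named after their values were seen. Values of 1 of these genes are left out of the text. A gene with several probe sets is represented by the brightest. Alternatives were other pseudocounts, median centring, quantile normalization, omission of the dimmest 40%, a 3'/5' ratio covariate, blocks for scan period, scan day or title letter, only the groups compared, and leaving out or exchanging arrays. No Klrd1 sequence is printed here.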

Additional observations from a re-analysis of the deposited data

How the results depend on the processing

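The 4 CD8 minus CD4 differences kept their direction and passed in all alternatives run (31 for the mean over cultures, with 3.19 to 3.46 and a highest limma adjusted p of 4.38e-06; 19 for each condition, with 3.07 to 3.53 for IL-2, 3.89 to 4.28 for IL-2 and IL-4 and 2.25 to 2.91 for IL-2 and IL-12, highest adjusted p 0.0249). The IL-12 minus IL-4 call in CD4 cells was lost in 13 of 18: pseudocount 1 (1.79; limma adjusted p = 0.0536), median centring (1.61; 0.108), quantile normalization (1.69; 0.0550), only the groups compared (1.74; 0.0893), scan period (1.71; 0.222) or scan day (1.80; 0.588) as a block, the fits with 2 CD8 arrays exchanged (1.74; 0.0519) or left out (1.74; 0.0557), and 5 of 6 that leave out 1 array (range 1.35 to 2.02; adjusted p 0.0347 to 0.320). The B-cell call was lost in 12 of 19: pseudocount 1 (-1.39; limma adjusted p = 0.0552), median centring (-1.35; 0.0738), quantile normalization (-1.31; 0.05002), only the groups compared (-1.33; 0.335), scan day as a block (-0.89; 0.380), the 2 CD8 arrays exchanged (-1.33; 0.0504) or left out (-1.33; 0.0641), the title letter as a replicate block (-1.09; 0.175) and 4 of 6 that leave out 1 array (range -1.96 to -0.92; adjusted p 0.00152 to 0.263). Of comparisons that had not passed, none passed in any alternative; 3 values turned sign, IL-12 added to IL-2 in CD8 cells with the letter as a replicate block (0.026) and IL-12 minus IL-4 in CD8 cells with the 2 arrays exchanged (-0.21) or left out (-0.022). The cause of these changes was not tested. What the letters mark is unstated. Over 39 same-letter pairs of arrays, deviations from group means correlated with r from -0.13 to 0.36, and 9 were above 0.1, among them the B-cell pairs of letters G (0.163) and K (0.172), so a pairing was not shown for the series. With the block, IL-4 against IL-2 or IL-12 could not be fitted, since no letter holds both. Counts of called probe sets moved by over 1.5 times: 46 to 99 across alternatives for the mean CD8 minus CD4 difference (72 as reported), 12 to 35 for IL-2 (24), 14 to 36 for IL-2 and IL-4 (29), 9 to 26 for IL-2 and IL-12 (21), 4 to 10 for IL-12 minus IL-4 in CD4 cells (10), 23 to 95 for B cells (73), 0 to 4 and 0 to 6 for IL-12 added (2) and IL-12 minus IL-4 (4) in CD8 cells, and 0 to 9 and 0 to 3 for IL-4 added (6) and IL-12 added (1) in CD4 cells. For the interactions they were 0 to 3 against 3 (IL-2 and IL-4) and 0 to 3 against 2 (IL-12 against IL-4). Median centring moved the median of all probe sets by up to 0.21 on the log2 scale. Centring subtracts 1 value per array, so a difference relative to that median cannot change and says nothing on how firm a call is. Relative to the median, IL-12 minus IL-4 in CD4 cells was 1.71, and IL-4 added to IL-2 in CD4 cells -1.16. Of the 6 genes most like Klrd1, 5 were among the 6 with r over the 30 arrays and 4 after quantile normalization.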

Other observations

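Itgae, the gene of the integrin chain CD103, was the 1 of 9 measured memory CD8 T-cell surface genes that passed in fresh CD8 minus fresh CD4 cells (2.55 ± 0.30; limma adjusted p = 7.13e-06), where 1.61% of the probe sets passed. In cultured cells its difference was -0.10 ± 0.17 (limma adjusted p = 0.821). The change between fresh and cultured cells was not tested. Fasl, the gene of the death ligand of Fas, was the 1 of 13 effector genes that passed in fresh cells, lower in CD8 than in CD4 cells (-1.41 ± 0.31; limma adjusted p = 0.0157), and in cultured cells its difference was 0.27 ± 0.18 (limma adjusted p = 0.468). The fresh CD4 group holds the array of letter C, with 3' to 5' ratios of 7.62 for Actb and 4.97 for Gapdh. The Itgae and Fasl calls were not examined without it. Summed myeloid and dendritic markers were higher on fresh CD4 arrays (1823 to 2777) than on fresh CD8 arrays (771 to 1293), and their part in both calls was not tested.

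For 2 CD8 arrays, that of letter C with IL-2 and IL-4 and that of letter D with IL-2 and IL-12, the experiment file describes each by the title code of the other. Their Klrd1 signals were 4908 and 7333. With the 2 arrays exchanged, the CD8 minus CD4 difference was 4.28 with IL-2 and IL-4 (limma adjusted p = 1.04e-07) and 2.33 with IL-2 and IL-12 (limma adjusted p = 0.00378), so both calls held.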
